A study of Mus musculus with 24 samples.

Results

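The 10 chemokine genes Ccl3, Ccl4, Ccl5, Ccl6, Ccl9, Ccl17, Ccl22, Cxcl9, Cxcl10 and Cxcl16 were followed across all 8 groups of conventional dendritic cells (cDCs). The genes were taken by name from 24421 gene symbols in the count files. All 10 were present, and all 10 passed the low-count filter, which kept 13166 genes. RNA was sequenced from cDC1 and cDC2 sorted from spleens of untreated C57Bl/6 mice aged 6 to 12 weeks, with 4 CRE+ and 2 CRE- libraries for each subset and line. In the deletion line, CRE+ mice were CD11cCRExZeb2fl/fl, in which Cre driven by CD11c sequences acts on floxed Zeb2, and CRE- mice were Zeb2fl/fl. In the transgene line, CRE+ mice were CD11cCRExR26-Zeb2Tg/Tg, in which the same driver switches on Zeb2 from the Rosa26 locus, and CRE- mice were R26-Zeb2Tg/Tg. The CRE- groups thus carry the floxed gene or the silent transgene without Cre, and CD11c-driven Cre also acts in CD11c-positive cells other than cDCs. Separate mice for the libraries of a group are not stated in the labels, and the spread behind each p-value may therefore be technical.

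Library totals ran from 21972763 to 36094786 counts. Zeb2, a zinc-finger repressor that binds E-box DNA, averaged 35.8 ± 4.83 CPM (counts per library total, with TMM scaling) in CRE+ cDC2 of the deletion line, against 154 ± 31.1 CPM in CRE- cDC2 (SD, n = 4 and 2). In cDC1 of that line Zeb2 was low with and without Cre, at 1.22 ± 1 CPM in CRE+ and 1.53 ± 1.47 CPM in CRE- cells. In the transgene line Zeb2 averaged 44.2 ± 2.07 CPM in CRE+ and 2.81 ± 0.631 CPM in CRE- cDC1. In cDC2 of the transgene line it averaged 153 ± 4.72 CPM in CRE+ and 104 ± 0.31 CPM in CRE- cells. That difference did not pass the edgeR test (log2 0.56, SE 0.29, adjusted p 0.618). Zeb2 in CRE- cDC2 of the transgene line, set against that of the deletion line, did not pass either (log2 -0.57, SE 0.33, edgeR adjusted p 0.628). The subset labels matched their markers: against control cDC1, control cDC2 had 8 of 8 cDC2 markers higher and 8 of 8 cDC1 markers lower.

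Chemokines are small secreted proteins that draw leukocytes along gradients by binding G protein-coupled receptors on the migrating cells. Dendritic cells use them to bring T cells and other leukocytes into contact with presented antigen. Ccl3, Ccl4 and Ccl5 are inflammatory chemokines that attract T cells and monocytes, and Ccl3 and Ccl5 bind Ccr1. Ccl6 and Ccl9 are rodent ligands of Ccr1, Ccl17 and Ccl22 bind Ccr4 on regulatory and type 2 helper T cells, Cxcl9 and Cxcl10 are interferon-induced ligands of Cxcr3, and Cxcl16 is a membrane-bound ligand of Cxcr6.

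The genes lie in 3 clusters and 1 separate place of GRCm38 (mm10). On chromosome 11 the CC chemokines stand in the order Ccl5 (chr11:83525778-83530518), Ccl9 (chr11:83572919-83578636), Ccl6 (chr11:83587882-83593087), Ccl3 (chr11:83647844-83649355) and Ccl4 (chr11:83662584-83664683), and Cxcl16 (chr11:70453983-70459984) lies apart from them. Ccl22 (chr8:94745590-94751699) and Ccl17 (chr8:94810453-94812036) are separated by 58.8 kb on chromosome 8. Cxcl9 (chr5:92321347-92328079) and Cxcl10 (chr5:92346638-92348889) are separated by 18.6 kb on chromosome 5, and Ccl9 and Ccl6 by 9.24 kb. Ccl6 lies within the antisense gene E230016K23Rik, Cxcl10 within the opposite-strand gene Art3, and Cxcl16 shares 552 bp with the opposite-strand gene Zmynd15. The library kits named in the labels do not mark strand, so reads in these overlaps cannot be assigned to one gene with certainty. E230016K23Rik reached at most 1.43 CPM, Art3 at most 1.09 CPM and Zmynd15 1.74 to 35.1 CPM in any library.

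Start-site sequences are given for the neighbouring pair Ccl6 and Ccl9, called higher together in transgene cDC1, for Ccl22, called in both Cre lines, and for the neighbours Cxcl9 and Cxcl10, whose levels differed by subset in one and not in the other. Each runs 5′ to 3′ on the gene's own strand from 250 bases before to 20 bases after the RefSeq start (GRCm38.p6), and capitals mark matches to the motifs searched.
Ccl6: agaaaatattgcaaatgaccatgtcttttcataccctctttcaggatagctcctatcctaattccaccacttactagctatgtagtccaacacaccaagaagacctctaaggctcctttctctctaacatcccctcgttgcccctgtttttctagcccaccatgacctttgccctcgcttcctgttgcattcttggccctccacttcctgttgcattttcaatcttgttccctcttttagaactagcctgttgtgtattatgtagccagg
Ccl9: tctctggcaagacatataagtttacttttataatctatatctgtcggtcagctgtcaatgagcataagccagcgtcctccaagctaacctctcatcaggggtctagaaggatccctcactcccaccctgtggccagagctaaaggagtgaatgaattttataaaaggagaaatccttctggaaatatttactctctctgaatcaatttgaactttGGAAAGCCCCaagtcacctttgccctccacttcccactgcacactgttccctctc
Ccl22: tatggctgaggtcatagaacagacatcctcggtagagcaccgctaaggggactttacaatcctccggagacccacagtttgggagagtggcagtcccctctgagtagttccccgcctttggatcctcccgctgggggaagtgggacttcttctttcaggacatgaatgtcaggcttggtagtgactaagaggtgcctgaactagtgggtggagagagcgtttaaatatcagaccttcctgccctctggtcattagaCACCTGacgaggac
Cxcl9: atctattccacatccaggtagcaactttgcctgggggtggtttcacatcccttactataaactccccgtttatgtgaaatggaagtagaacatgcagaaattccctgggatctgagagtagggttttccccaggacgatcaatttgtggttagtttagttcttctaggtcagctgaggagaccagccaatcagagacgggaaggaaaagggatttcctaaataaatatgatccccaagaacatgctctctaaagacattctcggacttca
Cxcl10: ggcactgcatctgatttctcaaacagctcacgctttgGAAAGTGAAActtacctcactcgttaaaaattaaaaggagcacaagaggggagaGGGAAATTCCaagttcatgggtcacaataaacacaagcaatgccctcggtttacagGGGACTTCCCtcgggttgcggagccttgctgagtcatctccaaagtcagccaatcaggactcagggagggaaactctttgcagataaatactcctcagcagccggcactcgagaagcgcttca

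The Ccl22 window (plus strand, chr8:94745434-94745703) has 1 match to CACCTG, the E-box form bound by ZEB proteins, beginning 6 bases after the start. The same letters, searched on both strands, occur in 18.4% of 32851 promoters of this length. Cxcl10 (minus strand, chr5:92348870-92349139) has 1 match to the core of the interferon-stimulated response element, found in 3.21% of promoters, and 2 matches to the NF-kB consensus, found in 4.12%. Ccl9 (minus strand, chr11:83578617-83578886) has 1 match to the NF-kB consensus. Ccl6 (minus strand, chr11:83593068-83593337) and Cxcl9 (minus strand, chr5:92328060-92328329) hold none of the 4 motifs, the remaining one being the gamma-activated sequence, TTCNNNGAA, found in 7.58% of promoters. All motifs were searched on both strands, and no 2 matches overlapped in these windows. The RefSeq start of Ccl22 lies inside the gene span given above, which is GENCODE's. RefSeq windows were matched for 7 of the 10 genes, and those of Ccl3 and Ccl17 are not shown, nor are Ccl4, Ccl5 and Cxcl16.

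Control cells showed which chemokines each subset carries. Per kilobase of the longest coding transcript, Ccl4 had the highest mean level in both subsets, with 475 ± 366 CPM per kb in control cDC2 and 363 ± 165 CPM per kb in control cDC1 (SD, n = 4 each). In control cDC2 of the transgene line alone, Ccl4 ranked 2. In control cDC2 the next were Ccl5 at 254 ± 54.8 and Ccl3 at 140 ± 101 CPM per kb. In control cDC1 the next were Cxcl16 at 92.8 ± 9.02 and Cxcl9 at 90.8 ± 2.29 CPM per kb, whose spreads overlap. The Ccl4 and Ccl5 spreads in control cDC2 also overlap. Ccl4 held 41.1 ± 13.2% of the summed per-kilobase level of the 10 genes in control cDC2 and 49.7 ± 14.2% in control cDC1. Ccl17, a Ccr4 ligand, had 0.524 ± 0.447 CPM per kb in control cDC2 and 0.59 ± 0.484 CPM per kb in control cDC1, the lowest and second lowest of the 10.

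**Figure D1:**
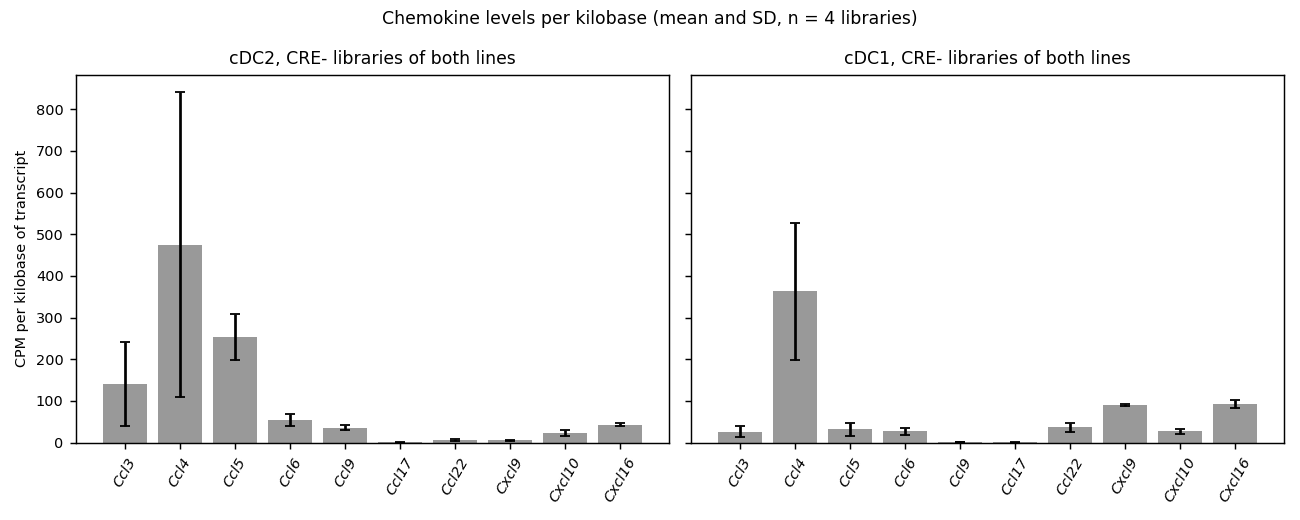
Levels of the 10 chemokines per kilobase of transcript (y axis, CPM per kb, linear) in control cDC2 (left) and control cDC1 (right), as mean and SD of 4 CRE- libraries of both lines. Ccl4 is the tallest bar in both panels, followed by Ccl5 in cDC2 and by Cxcl16 and Cxcl9 in cDC1.

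Set against control cDC1, 4 of the 10 genes were higher and 3 lower in control cDC2, with an adjusted p under 0.05 as the threshold (edgeR quasi-likelihood test, Benjamini-Hochberg adjustment over all genes). Of all 13166 genes, 27.6% were higher and 25.8% lower, 53.4% in all, so calls were common in this comparison whatever the gene. The libraries of 6 members did not overlap between the subsets, against 45.9% of all genes. The median log2 fold change of the members was 0.01, beside 0.05 over all genes.

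Ccl9, a chemoattractant of myeloid cells, had 97.8, 85.4, 121 and 123 CPM in control cDC2, against 2.09, 0.788, 1.5 and 2.06 CPM in control cDC1. Every control cDC2 library was above every control cDC1 library, and the fitted difference was 65.2-fold (log2 6.03, SE 0.42, edgeR adjusted p 3.23e-11). Ccl5, which recruits T cells, monocytes and NK cells, had 122, 153, 101 and 165 CPM in control cDC2, against 29.3, 16.1, 9.96 and 12.9 CPM in control cDC1. These libraries did not overlap either (8.39-fold, log2 3.07, SE 0.48, edgeR adjusted p 9.08e-06). Ccl5 is also made by T and NK cells, whose marker lists summed to at most 29.8 and 9.64 CPM in any library of the series, with 7 of 8 T cell markers and 8 of 8 NK cell markers in the files. Among the T cell markers Thy1 had no count in control cDC1 of the deletion line, and among the NK markers Ncr1 and Gzmb had none in either control group of that line. The part of such cells in the Ccl5 level was not tested.

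Ccl6 had 64.7, 61.3, 86.3 and 104 CPM in control cDC2, against 33.8, 22, 44.7 and 53.5 CPM in control cDC1. The subsets did not overlap, with a 2.09-fold difference (log2 1.06, SE 0.19, edgeR adjusted p 5.79e-05). Ccl3 had 31.9, 54.6, 144 and 197 CPM in control cDC2, against 10, 13.2, 32.8 and 23.1 CPM in control cDC1. The 31.9 CPM of a transgene-line cDC2 library fell just under the 32.8 CPM of a deletion-line cDC1 library, and within each line the subsets were apart (4.77-fold, log2 2.25, SE 0.25, edgeR adjusted p 8.05e-08). Ccl4 overlapped widely, at 104 to 642 CPM in control cDC2 and 89.6 to 331 CPM in control cDC1, and did not pass (log2 0.19, SE 0.30, edgeR adjusted p 0.614).

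The 3 genes lower in control cDC2 were Cxcl9, Ccl22 and Cxcl16. Cxcl9 had 22.7, 14.7, 16.2 and 16.6 CPM in control cDC2, against 259, 265, 255 and 270 CPM in control cDC1, a 15-fold gap (log2 -3.90, SE 0.18, edgeR adjusted p 1.78e-14). Within each subset its control libraries stood close together. Ccl22 had 18.8, 21.1, 8.92 and 15.8 CPM in control cDC2, against 90.4, 97.2, 47.4 and 92.5 CPM in control cDC1 (log2 -2.37, SE 0.29, edgeR adjusted p 2.76e-07). Cxcl16 had 109, 106, 124 and 122 CPM in control cDC2, against 247, 259, 219 and 277 CPM in control cDC1 (log2 -1.13, SE 0.18, edgeR adjusted p 1.11e-05). Neither gene's subsets overlapped. Cxcl10 overlapped between the subsets, at 15.9 to 39.6 CPM in control cDC2 and 24 to 42 CPM in control cDC1 (log2 -0.26, SE 0.22, edgeR adjusted p 0.349), so the neighbours Cxcl9 and Cxcl10 had unlike subset levels.

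Ccl17 was near the detection limit in all 24 libraries, at no more than 1.62 CPM. It had 0 counts in CRE- cDC2 replicate 1 of the deletion line, where a count of 0 allows a level of up to 0.112 CPM (3 counts), and no comparison called it. Changes of Ccl17 were not detectable at this depth except for large ones.

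**Figure D2:**
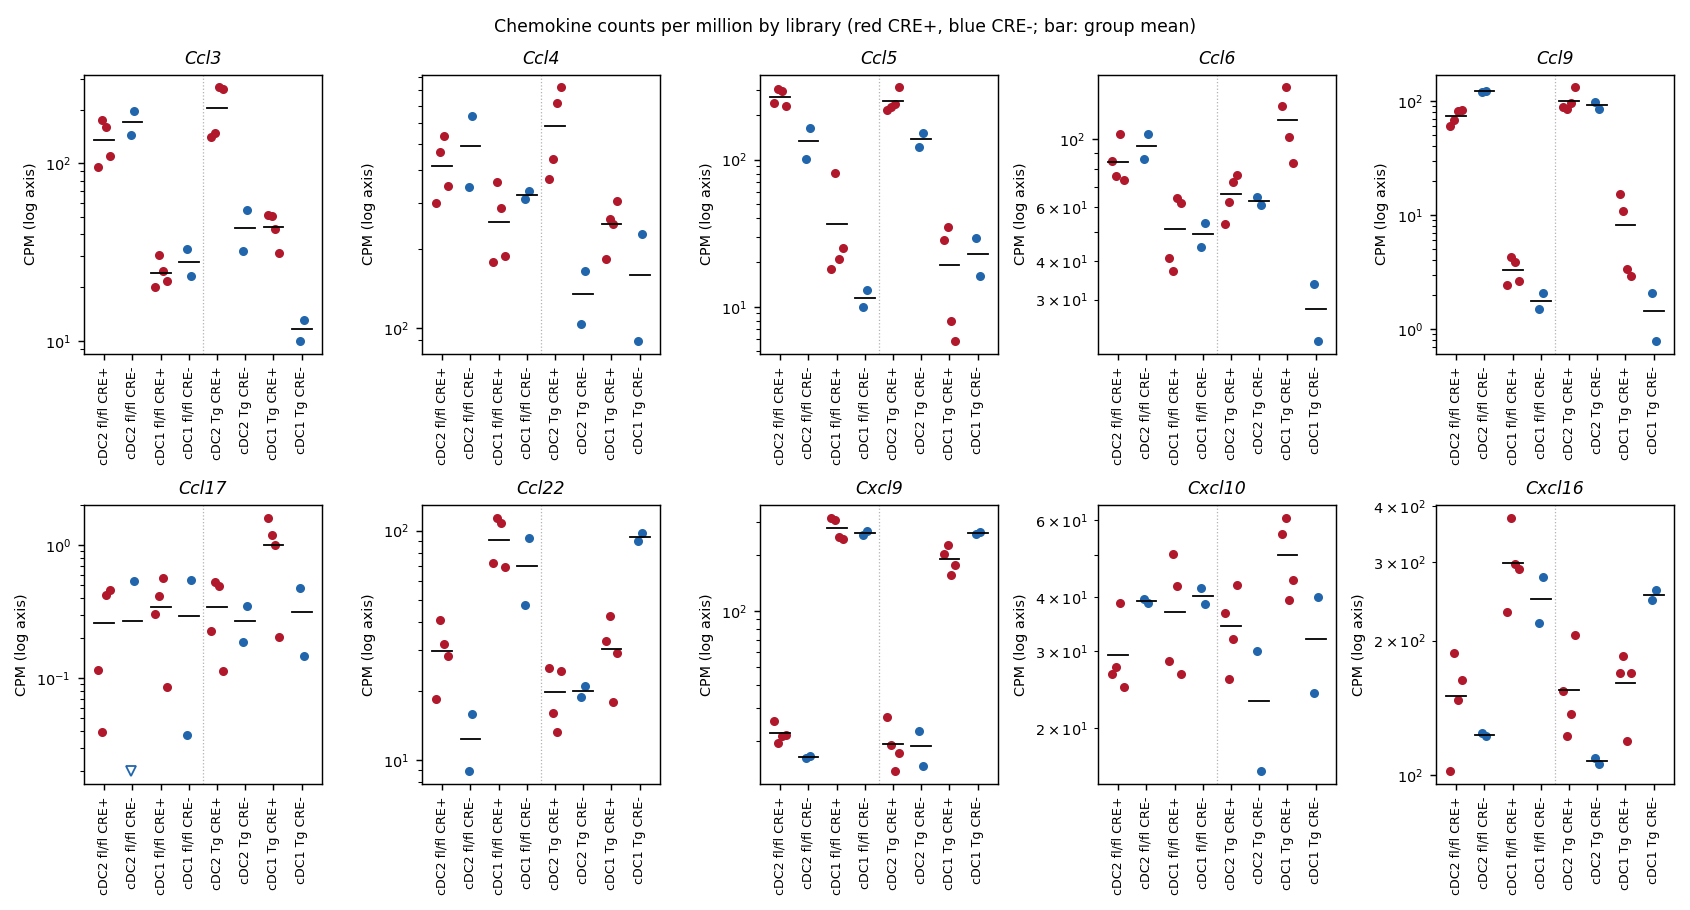
CPM of each chemokine (y axis, log scale) in each library of the 8 groups (x axis), CRE+ in red and CRE- in blue, with a bar at the group mean and a dotted line between the deletion line (fl/fl) and the transgene line (Tg). The open triangle at the bottom of the Ccl17 panel is a library with 0 counts, drawn at an arbitrary height. Ccl9, Ccl5, Cxcl9 and Ccl22 split mainly by subset, and the CRE- libraries of the transgene line are the lowest of their subset for Ccl3.

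Over the 8 groups, Ccl9 means were ordered with the 4 cDC2 groups on top (122, 99.8, 91.6 and 73.4 CPM) and the 4 cDC1 groups below (8.1, 3.32, 1.78 and 1.44 CPM), with no overlap between the fourth and the fifth. Cxcl9 had the reverse order of subsets, with cDC1 groups at 281, 263, 262 and 190 CPM and cDC2 groups at 16.4 to 21.9 CPM. The cDC2 groups' Cxcl9 libraries overlapped each neighbour in that order. For Ccl6 and Cxcl16, CRE+ cDC1 of the transgene line left the order of the subsets. That group had the highest Ccl6 mean of all 8, at 116 CPM. Its Ccl6 libraries overlapped those of the next group, CRE- cDC2 of the deletion line. Its Cxcl16 libraries, with a mean of 160 CPM, overlapped the cDC2 group next to them. Cxcl10 group means lay between 23 and 50 CPM, and each overlapped its neighbour in the order.

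In cDC2 of the deletion line, 1 of the 10 genes was called, Ccl22, beside 5.21% of all genes in this comparison (2.33% higher and 2.88% lower). Ccl22 had 18.4, 40.7, 32 and 28.5 CPM in CRE+ cDC2, against 8.92 and 15.8 CPM in CRE- cDC2. The groups did not overlap, though the lowest CRE+ library stood only slightly above the higher control (2.42-fold, log2 1.28, SE 0.36, edgeR adjusted p 0.0432). The call was lost in 5 of 6 fits that left out a library. Without CRE- replicate 1 the log2 fold change was 0.92 (adjusted p 0.498), and without CRE- replicate 2 it was 1.74 (adjusted p 0.0653). Without CRE+ replicate 2, 3 or 4 it was 1.09, 1.24 or 1.30 (adjusted p 0.109, 0.0667 and 0.0638).

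Markers of other cells moved in the same comparison. The summed level of 8 monocyte markers, all in the files and none at 0 in either group, was 1260 to 1560 CPM in CRE+ cDC2, against 3120 to 3810 CPM in CRE- cDC2, with 4 of 8 lower, among them Lyz2 (log2 -1.90, edgeR adjusted p 1.93e-07). The 6 B cell markers, none at 0, summed to 221 to 277 CPM in CRE+ cDC2, against 61.7 to 75.9 CPM in CRE- cDC2, with 2 of 5 tested markers higher. Their part in the Ccl22 level was not tested, and in sorted bulk samples more cells of a type and more RNA per cell cannot be told apart.

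Ccl5 in cDC2 of the deletion line had 244, 304, 292 and 233 CPM in CRE+ cells, against 101 and 165 CPM in CRE- cells. All CRE+ libraries were above both controls, but the difference did not pass (log2 1.01, SE 0.55, edgeR adjusted p 0.354) in the fit to all groups, and it passed when only the compared libraries were fitted (adjusted p 0.0081). Ccl9 had 60, 68.7, 82.1 and 82.9 CPM in CRE+ cDC2, against 121 and 123 CPM in CRE- cDC2, with no overlap. It did not pass either (log2 -0.74, SE 0.37, edgeR adjusted p 0.31), and passed with only the compared libraries (adjusted p 0.00736). Cxcl9 (19.4 to 25.6 CPM in CRE+ and 16.2 to 16.6 CPM in CRE- cDC2) and Cxcl10 (24.8 to 38.7 CPM in CRE+ and 38.7 to 39.6 CPM in CRE- cDC2) also had groups apart without a call, the Cxcl10 groups only just. Libraries of 5 of 10 members and of 27.1% of all genes did not overlap here. Ccl3, Ccl4, Ccl6, Ccl17 and Cxcl16 overlapped.

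In cDC1 of the deletion line, where Zeb2 was low in both groups, 0 of the 10 genes passed the edgeR test and 0 passed under DESeq2, beside 0.0228% of all genes. At an unadjusted p under 0.05, a threshold at which the share of all genes is not given, 1 member passed, Ccl5 (edgeR p 0.011). Ccl5 had 18.1, 81.6, 21.2 and 24.9 CPM in CRE+ cDC1, against 9.96 and 12.9 CPM in CRE- cDC1. The second CRE+ library stood far above the other 3, and all 4 were above the controls (log2 1.68, SE 0.60, edgeR adjusted p 0.963). Ccl9 was the other gene whose groups did not overlap, at 2.44 to 4.32 CPM in CRE+ and 1.5 to 2.06 CPM in CRE- cDC1. Non-overlap was found for 11.7% of all genes.

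**Figure D3:**
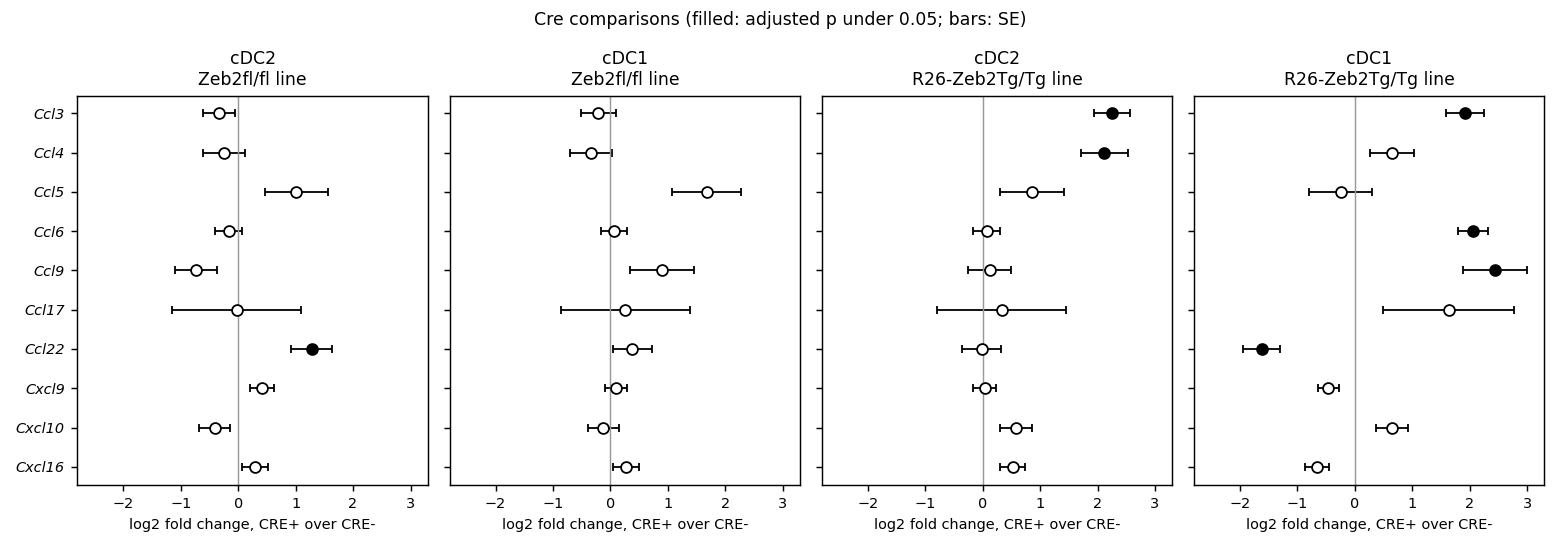
Log2 fold change of CRE+ over CRE- (x axis) with its SE for each chemokine (y axis) in the 4 subset and line combinations, filled where the edgeR adjusted p was under 0.05. Filled points are Ccl22 in deletion-line cDC2, Ccl3 and Ccl4 in transgene-line cDC2, and Ccl3, Ccl6, Ccl9 and Ccl22 in transgene-line cDC1.

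In cDC1 of the transgene line, 3 of the 10 genes rose and 1 fell, beside 7% of all genes called in either direction (3.58% higher and 3.42% lower). Ccl6 had 129, 148, 102 and 83.8 CPM in CRE+ cDC1, against 33.8 and 22 CPM in CRE- cDC1. The groups were well apart (4.14-fold, log2 2.05, SE 0.26, edgeR adjusted p 1.22e-05), and all 6 fits that left out a library called it. The Ccl6 mean of CRE+ cDC1, 116 CPM, was above that of CRE+ cDC2 of the same line, 66.3 CPM, and of the other 3 cDC2 groups. These cDC1 libraries overlapped deletion-line cDC2, at 86.3 and 104 CPM in CRE- and 73.7 to 104 CPM in CRE+ cells. Ccl6 was not tested between these groups. Ccl9, its neighbour on chromosome 11, had 15.4, 10.8, 3.37 and 2.93 CPM in CRE+ cDC1, against 2.09 and 0.788 CPM in CRE- cDC1. Replicates 1 and 2 were several times higher than replicates 3 and 4, which stood close to the higher control (5.41-fold, log2 2.44, SE 0.56, edgeR adjusted p 0.00738).

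The Ccl9 call was lost without CRE- replicate 2 (log2 1.95, adjusted p 0.141) and when only the compared libraries were fitted (log2 2.46, adjusted p 0.0917). Markers of cDC2 moved with it across the same libraries. Their summed level was 296, 278, 173 and 112 CPM in CRE+ cDC1 replicates 1 to 4, against 31 and 29.6 CPM in CRE- cDC1, with 6 of 8 markers higher, none at 0 in either group, and 2530 to 3420 CPM in cDC2 of that line. Among the markers, Cd4 (log2 2.74, edgeR adjusted p 6.56e-08) and Sirpa (log2 3.44, edgeR adjusted p 2.61e-05) were higher. Red pulp macrophage markers, 9 of 9 in the files and none at 0, summed to 265 to 496 CPM in CRE+ and 170 to 205 CPM in CRE- cDC1, with 3 of 9 higher, among them Adgre1 (log2 2.96, edgeR adjusted p 1.99e-06). The part of these cells in the Ccl6 and Ccl9 levels was not tested.

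Ccl22 fell in the same cells. It had 32.9, 42.3, 17.8 and 29.1 CPM in CRE+ cDC1, against 90.4 and 97.2 CPM in CRE- cDC1, so that every CRE+ library was under both controls (3.08-fold lower, log2 -1.62, SE 0.32, edgeR adjusted p 0.00212). All 6 fits that left out a library called it. Markers of cDC1 were also lower in these cells. Their summed level was 4090, 4200, 4680 and 5510 CPM in CRE+ cDC1, against 6860 and 8350 CPM in CRE- cDC1, with 4 of 8 lower, among them Tlr3 (log2 -1.20, edgeR adjusted p 0.000108) and Itgae (log2 -1.78, edgeR adjusted p 0.00409), and none at 0. The part of this in the Ccl22, Cxcl16 and Cxcl9 levels was not tested. In cDC2 of the transgene line Ccl22 overlapped between the groups, at 13.2 to 25.2 CPM in CRE+ and 18.8 to 21.1 CPM in CRE- cells (log2 -0.02, SE 0.34, edgeR adjusted p 1).

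Cxcl16 and Cxcl9 in transgene cDC1 had CRE+ libraries under both controls without passing the test. Cxcl16 had 169, 185, 119 and 169 CPM in CRE+ cDC1, against 247 and 259 CPM in CRE- cDC1 (log2 -0.66, SE 0.21, edgeR adjusted p 0.0601). It passed under DESeq2 (adjusted p 0.0286), without the low-count filter (0.0493), with only the compared libraries (0.0341) and with controls of both lines pooled (0.012). Cxcl9 had 203, 225, 156 and 176 CPM in CRE+ cDC1, against 259 and 265 CPM in CRE- cDC1 (log2 -0.46, SE 0.19, edgeR adjusted p 0.156), and passed with pooled controls (adjusted p 0.0425). Cxcl10 overlapped, at 55.9, 60.9, 39.4 and 43.8 CPM in CRE+ and 24 and 39.9 CPM in CRE- cDC1 (log2 0.65, SE 0.28, edgeR adjusted p 0.191). Libraries of 6 members and of 25.2% of all genes did not overlap.

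Genes of the interferon response, which includes Cxcl9 and Cxcl10 as known targets, were called higher for 7 of 18 listed members in transgene cDC1, among them Ddx58 (log2 4.90, edgeR adjusted p 2.70e-07) and Oasl2 (log2 3.57, edgeR adjusted p 7.38e-06). Of all genes, 3.58% were called higher there. The median of the interferon list was 0.90, beside 0.02 over all genes. Its summed level was 1280, 1180, 865 and 990 CPM in CRE+ replicates 1 to 4, against 989 and 1000 CPM in CRE- cDC1, so the groups overlapped. Of 18 maturation genes, 4 were lower and 0 higher, beside 3.42% of all genes lower. Among the 4 were Cd200 (log2 -1.07, edgeR adjusted p 0.000763) and Tnfrsf4 (log2 -2.17, edgeR adjusted p 0.0202), and the list median was -0.63. Ccl22 is itself known to be made by maturing dendritic cells. These lists were chosen with results of these samples known and are no independent evidence of direction.

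Ccl3, a chemoattractant of monocytes and T cells that binds Ccr1, was called in both subsets of the transgene line. In cDC2 it had 141, 149, 268 and 263 CPM in CRE+ libraries, against 31.9 and 54.6 CPM in CRE- libraries (4.75-fold, log2 2.25, SE 0.32, edgeR adjusted p 0.000595). In cDC1 it had 51, 50.7, 42.8 and 31.1 CPM in CRE+ libraries, against 10 and 13.2 CPM in CRE- libraries (3.78-fold, log2 1.92, SE 0.33, edgeR adjusted p 0.000601). Neither subset's groups overlapped. Its neighbour Ccl4, also an attractant of T cells and monocytes, had 369, 441, 714 and 823 CPM in CRE+ cDC2, against 104 and 165 CPM in CRE- cDC2 (4.35-fold, log2 2.12, SE 0.41, edgeR adjusted p 0.0151). In cDC1 of that line Ccl4 overlapped, at 183 to 304 CPM in CRE+ and 89.6 and 229 CPM in CRE- libraries (log2 0.65, SE 0.38, edgeR adjusted p 0.366). Ccl3 and Ccl4 were the only members called in transgene cDC2, where 0.327% of all genes were called and 0.114% were higher.

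Both cDC2 calls leaned on the transgene-line controls. Without CRE- replicate 1 the log2 fold change of Ccl3 was 1.90 (adjusted p 0.0618) and that of Ccl4 was 1.82 (adjusted p 0.345). Without CRE- replicate 2, that of Ccl4 was 2.49 (adjusted p 0.104). In transgene cDC2, libraries of 4 members, Ccl3, Ccl4, Ccl5 and Cxcl16, and of 20.9% of all genes did not overlap. Ccl5 had 219, 227, 239 and 311 CPM in CRE+ cDC2, against 122 and 153 CPM in CRE- cDC2, and did not pass (log2 0.86, SE 0.55, edgeR adjusted p 0.716). CRE+ cDC2 were thus above CRE- cDC2 for Ccl5 in all libraries of both lines, with neither difference past the threshold.

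The CRE- controls of both lines, which carry no Cre, were compared with each other. In cDC2, Ccl3 had 31.9 and 54.6 CPM in R26-Zeb2Tg/Tg controls, against 144 and 197 CPM in Zeb2fl/fl controls (3.95-fold lower, log2 -1.98, SE 0.35, edgeR adjusted p 0.0117). It was the 1 member called, beside 0.137% of all genes (0.0835% higher and 0.0532% lower), and the call was lost without R26-Zeb2Tg/Tg replicate 1 (log2 -1.64, adjusted p 0.36) or Zeb2fl/fl replicate 2 (log2 -1.74, adjusted p 0.111). Ccl4 had 104 and 165 CPM in R26-Zeb2Tg/Tg controls, against 343 and 642 CPM in Zeb2fl/fl controls, and did not pass (log2 -1.87, SE 0.43, edgeR adjusted p 0.102), but passed under DESeq2 (adjusted p 0.027), without the low-count filter (0.0277) and with only the compared libraries (0.0228). Both genes were lower in each R26-Zeb2Tg/Tg library than in each Zeb2fl/fl library. Libraries did not overlap for 7 of 10 members and for 40.7% of all genes.

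In control cDC1, Ccl3 had 10 and 13.2 CPM in R26-Zeb2Tg/Tg mice, against 32.8 and 23.1 CPM in Zeb2fl/fl mice (log2 -1.27, SE 0.36, edgeR adjusted p 0.306). Ccl4 had 89.6 and 229 CPM in R26-Zeb2Tg/Tg mice, against 309 and 331 CPM in Zeb2fl/fl mice (log2 -1.01, SE 0.42, edgeR adjusted p 0.622). Ccl6 had 33.8 and 22 CPM in R26-Zeb2Tg/Tg mice, against 44.7 and 53.5 CPM in Zeb2fl/fl mice (log2 -0.81, SE 0.27, edgeR adjusted p 0.492). All 3 were lower in each transgene-line library than in each deletion-line library without passing. With edgeR and with DESeq2, 0 members were called in control cDC1, beside 0.129% of all genes called with edgeR (0.0456% higher and 0.0835% lower). At an unadjusted edgeR p under 0.05, 3 passed (Ccl3, Ccl4 and Ccl6). The share of all genes at that threshold is not given, so this count has no background to be read against. Libraries did not overlap for 4 members, these 3 and Ccl5, and for 34.2% of all genes. Cxcl9, Cxcl16, Ccl9, Ccl17, Ccl22 and Cxcl10 overlapped between the controls of both lines in cDC1.

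Which controls were used set the Ccl3 and Ccl4 values. With the CRE- libraries of both lines pooled, the log2 fold change in transgene cDC2 was 0.94 for Ccl3 (adjusted p 0.426) and 0.90 for Ccl4 (adjusted p 0.485). Against the other line's controls it was 0.26 for Ccl3 (adjusted p 0.841) and 0.25 for Ccl4 (adjusted p 0.897), a setting chosen after seeing the data. In transgene cDC1 the log2 fold change of Ccl3 was 1.14 with pooled controls (adjusted p 0.0659) and 0.65 against the other line's (adjusted p 0.183). In deletion-line cDC2, own controls gave -0.34 for Ccl3 (SE 0.28, edgeR adjusted p 0.601) and -0.25 for Ccl4 (SE 0.36, edgeR adjusted p 0.788). The transgene line's controls turned the direction there, to 1.65 for Ccl3 (adjusted p 0.0034) and 1.61 for Ccl4 (adjusted p 0.0212).

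Ccl6, Ccl9 and Ccl22 in transgene cDC1 passed with each choice of controls. With pooled controls their log2 fold changes were 1.59, 2.30 and -1.42 (adjusted p 4.27e-05, 0.000352 and 0.00141). Against Zeb2fl/fl controls they were 1.24, 2.18 and -1.20 (adjusted p 0.00149, 0.00875 and 0.0168). Ccl22 in deletion-line cDC2 passed with own controls only, at 0.89 with pooled controls (adjusted p 0.0695) and 0.58 against the other line's (adjusted p 0.409).

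**Figure D4:**
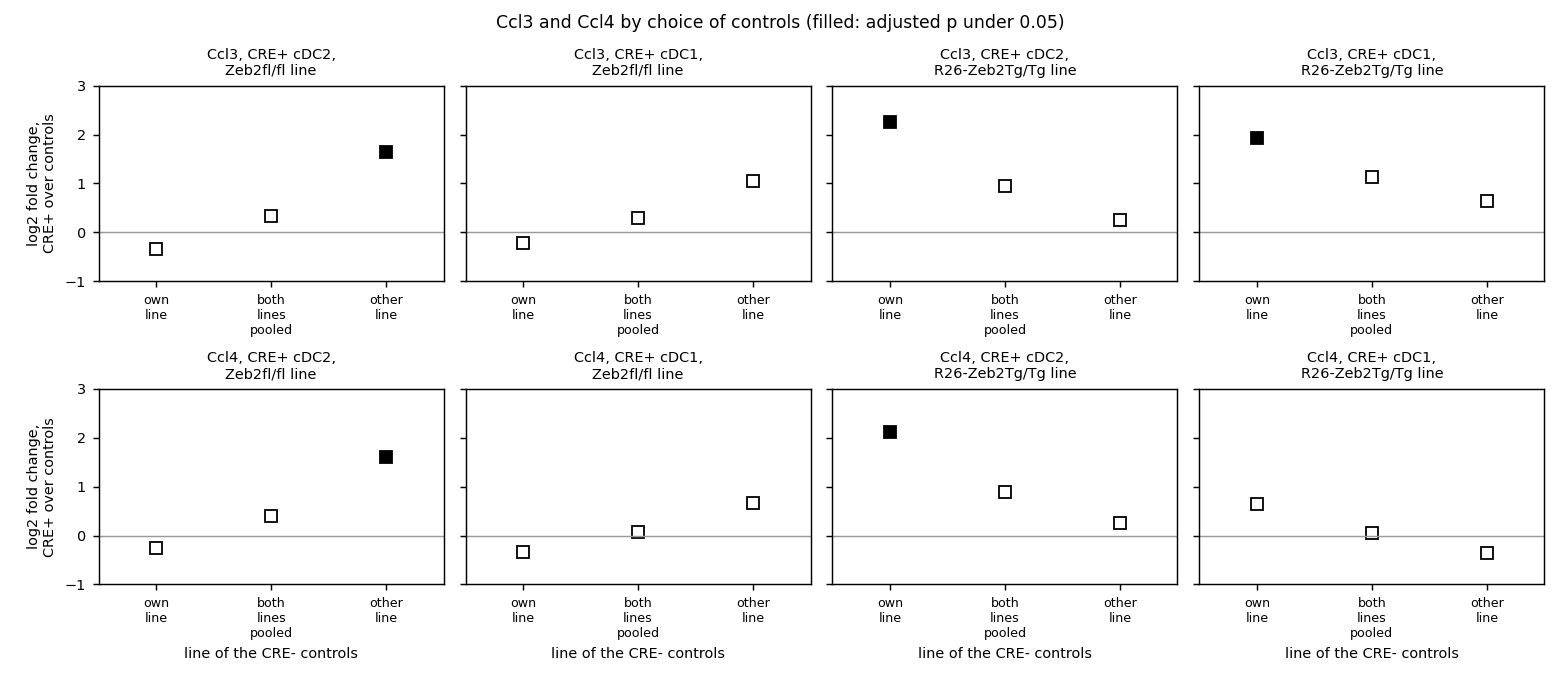
Log2 fold change of Ccl3 (top) and Ccl4 (bottom) in CRE+ cells over CRE- controls (y axis) with controls of the same line, of both lines pooled or of the other line (x axis), filled where the edgeR adjusted p was under 0.05. In transgene-line cDC2 the value of Ccl3 is 2.25, 0.94 and 0.26 with these controls, and in deletion-line cDC2 it is positive and filled only with the other line's controls.

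Early response genes, which immune cells switch on quickly when handled or stimulated, were read beside Ccl3. The 15 genes of that list, all in the files and none at 0, summed to 20000 to 33200 CPM in CRE+ cDC2 of the transgene line, against 20300 CPM in each CRE- library. In deletion-line cDC2 the sum was 28100 to 36200 CPM in CRE+ and 28900 to 31400 CPM in CRE- libraries. CRE- cDC2 of the transgene line thus had a lower sum than CRE- cDC2 of the deletion line, as they did for Ccl3 and Ccl4. The CRE+ cDC2 libraries of the transgene line with 141, 149, 268 and 263 CPM of Ccl3 had sums of 20000, 21700, 33200 and 29500 CPM. In transgene cDC1, where Ccl3 was also called higher, the sums overlapped. They were 9600 to 15000 CPM in CRE+ and 10400 to 15400 CPM in CRE- libraries, with a list median of -0.07. The CRE- cDC1 libraries of the deletion line had 16300 to 16900 CPM. None of the 15 early response genes passed the edgeR test in any of the 4 Cre comparisons or between the lines' controls, with list medians of 0.32 in transgene cDC2 and -0.66 between the cDC2 controls of the lines, and of 15 NF-kB genes only Nfkb1 passed (lower in deletion-line cDC2, log2 -0.52, adjusted p 0.0127). The part of handling in Ccl3 and Ccl4 was not tested. In control cDC2, 9 early response genes were higher than in control cDC1 and 0 lower, and 14 of 15 NF-kB genes were higher and 1 lower. Of all genes, 27.6% were higher and 25.8% lower in that comparison.

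**Figure D5:**
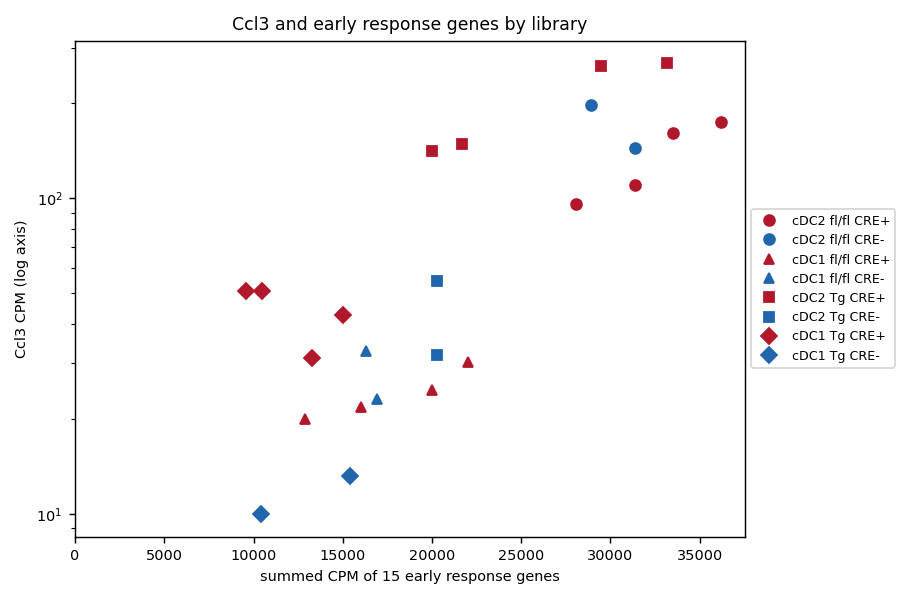
Ccl3 CPM (y axis, log scale) against the summed CPM of 15 early response genes (x axis) in each of the 24 libraries, with CRE+ in red and CRE- in blue and a marker shape for each subset and line. The transgene-line CRE- cDC2 libraries (blue squares) lie at 20300 CPM of early response genes, and the CRE+ libraries (red squares) at 20000 to 33200 CPM.

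The Cre effect was also compared between subsets, as the log2 fold change in cDC2 minus that in cDC1. In the transgene line, Ccl6 differed at -1.98 (SE 0.33, edgeR adjusted p 0.00126): its fold change was 0.07 in cDC2 and 2.05 in cDC1. Cxcl16 differed at 1.18 (SE 0.31, edgeR adjusted p 0.0431), with 0.52 in cDC2 and -0.66 in cDC1, though 8 of 12 fits that left out a library lost this call, with adjusted p up to 0.178. Each of the 2 CRE- libraries of either subset was among these 8, as were CRE+ cDC1 replicates 1 and 3 and CRE+ cDC2 replicates 1 and 4. Ccl9 differed at -2.31 (SE 0.67, edgeR adjusted p 0.0824), Ccl22 at 1.60 (SE 0.48, adjusted p 0.092) and Ccl4 at 1.48 (SE 0.52, adjusted p 0.177). None passed the threshold with the reported settings and no replicate block, where 2.01% of all genes were called. Ccl9 passed without the low-count filter (adjusted p 0.0422) and under DESeq2 (0.0328). It also passed without CRE+ cDC1 replicate 3 (edgeR adjusted p 0.0261) or 4 (0.0129), and in no other fit that left out a library. The Ccl3 effects of 2.25 in cDC2 and 1.92 in cDC1 differed by 0.33 (SE 0.43, edgeR adjusted p 0.817). In the deletion line 0 members were called with edgeR or DESeq2, beside 1.08% of all genes called with edgeR (0.494% lower). At an unadjusted p under 0.05, a threshold at which the share of all genes is not given, 1 member passed, Ccl9 (log2 -1.64, SE 0.67, edgeR p 0.0231, adjusted p 0.277). It passed there when only the compared libraries were fitted (adjusted p 0.0246).

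Receptors were read on the same libraries from a list of 10 receptors and scavengers of inflammatory chemokines, of which 9 were tested. In control cDC2, 3 were higher and 1 lower than in control cDC1, beside 27.6% of all genes higher and 25.8% lower. Ccrl2, a receptor-like protein that presents chemerin, averaged 385 and 831 CPM in control cDC2 of the transgene and deletion lines, against 38.6 and 52.8 CPM in control cDC1 (log2 3.65, SE 0.25, edgeR adjusted p 2.44e-11). Cxcr3, the receptor of Cxcl9 and Cxcl10, was 26.1-fold lower in control cDC2 (log2 -4.70, SE 0.18, edgeR adjusted p 6.14e-16), in the same subset that had less Cxcl9.

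Cre moved Cxcr3 in both lines. It averaged 21.9 ± 3.17 CPM in CRE+ and 3.82 ± 1.12 CPM in CRE- cDC2 of the deletion line (log2 2.52, SE 0.22, edgeR adjusted p 1.54e-07). In transgene cDC1 it averaged 33.6 ± 1.13 CPM in CRE+ and 119 ± 4.39 CPM in CRE- cells (log2 -1.82, SE 0.17, edgeR adjusted p 2.19e-07). Cxcr3 and Ccl22 were thus both called higher in deletion-line cDC2 and both lower in transgene-line cDC1. In deletion-line cDC2, Ccl22 passed with own controls only, and most fits that left out a library lost its call. Ccr2, the receptor that brings monocytes out of the marrow, averaged 42.3 ± 12.7 CPM in CRE+ and 146 ± 13.9 CPM in CRE- cDC2 of the deletion line (log2 -1.79, SE 0.40, edgeR adjusted p 0.00885).

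The other chemokine ligands were scarce. Of 27 listed, 15 were tested, and their summed level was 5.53 to 31.9 CPM in any library. In control cDC2, 1 was higher, Cxcl1, and 4 were lower, Ccl2, Ccl7, Cxcl11 and Cx3cl1, with Ccl2 at 5.56-fold (log2 -2.48, SE 0.43, edgeR adjusted p 3.44e-05). Of all genes, 27.6% were higher and 25.8% lower there. Ccl24, an eosinophil attractant, averaged 2.86 ± 1.84 CPM in CRE+ and 0.168 ± 0.238 CPM in CRE- cDC2 of the deletion line (log2 4.04, SE 1.10, edgeR adjusted p 0.0332), where the 9 counts of the controls were all in 1 library. Cx3cl1, fractalkine, averaged 2.11 ± 1.33 CPM in CRE+ and 5.91 ± 0.281 CPM in CRE- cDC1 of the transgene line (log2 -1.50, SE 0.45, edgeR adjusted p 0.0444). No other listed ligand passed in a Cre comparison.

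Of 5 proteases known to cut or shed chemokines, 4 were higher and 1 lower in control cDC2, beside 27.6% of all genes higher and 25.8% lower. Adam10, which sheds Cxcl16, differed by log2 0.69 (SE 0.10, edgeR adjusted p 6.63e-06). Mmp12, a macrophage elastase, averaged 6.47 ± 2.72 CPM in CRE+ and 0.445 ± 0.281 CPM in CRE- cDC1 of the transgene line (log2 3.78, SE 0.63, edgeR adjusted p 0.000351). Mmp9, a gelatinase, averaged 11.6 ± 6.04 CPM in CRE+ and 81.5 ± 7.66 CPM in CRE- cDC2 of the deletion line (log2 -2.82, SE 0.41, edgeR adjusted p 0.00017).

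Genes whose log2 CPM followed each chemokine most closely over the 24 libraries are given as a description. The libraries share subsets and depth, and a gene that splits by subset gives a high r by that alone. Ccl9 was most like Il2rg (Pearson r 0.991 over all libraries, 0.95 within cDC1 and 0.23 within cDC2), and Cxcl9 was most like Cyb5a (r 0.994, with 0.82 within each subset). Ccl3 was most like Plk2 (r 0.955, with 0.79 within cDC1 and 0.90 within cDC2), Rgs1 and Plaur, and Ccl4 most like Plk3 (r 0.892, with 0.76 and 0.92), Egr2 and Ier3, the last pair being members of the early response list. Ccl6 was most like Sat1 (r 0.848), Ifit1bl1 (r 0.825) and Dhx58 (r 0.822), each with about 0.90 within cDC1 and with -0.02, 0.05 and 0.65 within cDC2.

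Ccl5 was most like Mreg (r 0.976, with 0.87 within cDC1 and 0.78 within cDC2), and Ccl22 most like Igsf9 (r 0.929, with 0.92 and 0.71). Cxcl16 was most like Glipr2 (r 0.926) and had Ccl22 as the next but 1 (r 0.913, with 0.95 within cDC1 and 0.58 within cDC2). Cxcl16, Ccl22 and Cxcl9 are the 3 members that were higher in control cDC1 and lay under both controls in every CRE+ cDC1 library of the transgene line. Ccl17 was most like Msmo1 (r 0.698), the lowest value of the 10.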

How the data were processed

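Each of 24 libraries of sorted splenic cDC1 or cDC2 has 1 file of counts per gene symbol, deposited by the authors without scaling. SMART-Seq v4 amplification started from 4 ng of RNA, per the labels' protocols, and 75 bp single-end reads were sequenced after 15 PCR cycles. Per the submitters' processing notes, FastQC 0.11.4, Trimmomatic 0.35, TopHat2 2.1.0, SAMtools 0.1.18 and the mm10 build were used. No source used here names the counting program, annotation or strand setting. Lines that name no gene were left out (reads in no feature 10.43 to 15.68%, ambiguous reads 0.9702 to 1.086%).

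The tests ran in edgeR 4.0.16 (R 4.3.3): filterByExpr (minimum count 10, minimum total 15), TMM scaling, 8 group means over all 24 libraries, quasi-likelihood tests, Benjamini-Hochberg adjustment over 13166 genes and a threshold of 0.05. CPM values are TMM-scaled, and differences are the first named group minus the second. Levels per kilobase use the longest coding transcript of GENCODE M21 (GRCm38). Alternatives were DESeq2 1.42.0 and its size factors, dropping the low-count filter or requiring 5 CPM in 4 libraries, fitting just the libraries compared, replicate blocks, pooled or exchanged controls, and each library left out. The other line's controls were added after the data were seen. The members and lists were chosen with earlier results of these data known. Named genes were the 10 members, Zeb2, at most 2 called members of each list, receptors and other ligands, the most alike genes (average log2 CPM at least 2), and genes overlapping a member. In simulated counts, a drawn set of genes at 1 CPM or more was changed 2-fold or 4-fold, and recovery is the share of that set. Levels as low as those of Ccl17 were left out. Recovery at 2-fold and 4-fold was 84 and 96% for deletion-line cDC2 (12981 genes tested) and 76 and 95% for transgene cDC2 (13012 tested). It was 81 and 98% for transgene cDC1 (13001 tested) and 65 and 86% for the cDC2 controls of both lines (13012 tested). The simulation was tested on 1 draw per comparison.

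No pair of replicates agreed within counting noise. Some items are not reported here.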

Additional observations from a re-analysis of the deposited data

Results flagged for a closer look

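Of 40 group and gene combinations with 4 libraries, 1 held a library far from the others: Ccl5 in CRE+ cDC1 of the deletion line, where replicate 2 had 81.6 CPM and the other 3 had 18.1 to 24.9 CPM (gap of 0.893 of the range). Chance alone gives about 1 such case in 20 groups. That library also stood apart in other lists. Its maturation genes summed to 7210 CPM, against 3160 to 4370 CPM in the other 3 CRE+ libraries, its NF-kB genes to 3080 CPM, against 2070 to 2130 CPM, and its early response genes to 22000 CPM, against 12900 to 20000 CPM. Its T cell marker sum of 7.65 CPM and cDC2 marker sum of 31.9 CPM lay within the range of the others (6.25 to 11.1 and 22.9 to 52.6 CPM). The CRE+ cDC2 library of the same line and number was also the highest of its group in these gene sums. Its maturation genes summed to 8890 CPM, against 4460 to 6450 CPM in the others, and its NF-kB genes to 5270 CPM, against 4190 to 4930 CPM. Its early response genes summed to 36200 CPM, against 28100 to 33500 CPM, and its Ccl5 was 304 CPM, against 233 to 292 CPM. The part of any of these in the Ccl5 level of the cDC1 library was not tested.

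The effect of Cre differed between cDC2 and cDC1 of the transgene line for Ccl6 and Cxcl16, by the interaction test. For Ccl6 the difference was -1.98 on the log2 scale (edgeR adjusted p 0.00126), with CRE+ above both CRE- libraries in 4 of 4 cDC1 libraries. For Cxcl16 it was 1.18 (edgeR adjusted p 0.0431), with CRE+ under both controls in 4 of 4 cDC1 libraries and over both in 4 of 4 cDC2 libraries. Most fits that left out a library lost the Cxcl16 call, as given above. Of all genes, 2.01% were called in this test. Libraries of CRE+ and CRE- cells did not overlap for 25.2% of all genes in cDC1 and 20.9% in cDC2 of that line.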

How the results depend on the processing

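Of 1278 member values under alternatives, 1227 kept their side of the threshold, 21 passed newly, 28 no longer passed and 2 turned round. In 93 of the 1278 the sign changed with neither value called. The 2 that turned round were Ccl3 (1.65) and Ccl4 (1.61) in deletion-line cDC2 against the other line's controls. The count of members called in deletion-line cDC2, 1 as reported, was 3 with only the compared libraries, 2 with the replicate block on number, 0 with pooled controls and 2 with the other line's. That in transgene cDC2, 2 as reported, was 0 with pooled and 0 with the other line's controls. Between the lines' cDC2 controls it was 1 as reported and 2 without the low-count filter, under DESeq2, with only the compared libraries and with the replicate block on number. For the subset difference of the Cre effect it was 1 with only the compared libraries against 0 (deletion line), and 4 with the replicate block that pairs subsets by number against 2 (transgene line). The causes were not tested beyond what leaving out libraries shows.

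With each library left out, the counts ran from 0 to 1 in deletion-line cDC2, 0 to 2 in transgene cDC2, 3 to 4 in transgene cDC1, 0 to 1 between the lines' cDC2 controls and 1 to 3 for the transgene-line subset difference. They were 7 to 7 for the control subsets and 0 to 0 for deletion-line cDC1, the lines' cDC1 controls and the deletion-line subset difference. Where a group was left with 1 library, it was assumed to vary like the others. DESeq2 size factors changed no member's call. Deviations of same-numbered cDC1 and cDC2 libraries correlated at -0.00779 to 0.17, with 0.101 to 0.111 in CRE+ and 0.0352 in CRE- libraries of the transgene line. Same-numbered CRE+ and CRE- libraries of a subset, for comparison, correlated at -0.1 to 0.0696. Not all of the former were above 0.1, so the numbers were not taken to pair libraries. Chi-square per gene, however, followed the numbers alike in both subsets of deletion-line CRE+ cells. It was 42.74 for replicates 1 and 2 and 18.76 for 1 and 4 in cDC2, and 43.61 and 20.61 in cDC1. A shared mouse or batch is not stated in the labels and was not tested, and the tests reported ignore any such pairing. With the replicate block that pairs subsets, Ccl4 (1.31, edgeR adjusted p 0.00944) and Ccl22 (1.62, adjusted p 0.00272) passed for the transgene-line subset difference. With the block on number, Ccl4 passed there (1.38, adjusted p 0.0475) and between cDC2 controls (-1.84, adjusted p 0.00594), Cxcl9 in deletion-line cDC2 (0.58, adjusted p 0.0428) and Cxcl16 in transgene cDC1 (-0.68, adjusted p 0.0436).

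Counts over all genes moved more. Under DESeq2, 123 genes were called in transgene cDC2 against 43, 8 in deletion-line cDC1 against 3, 70 between cDC2 controls against 18, 52 between cDC1 controls against 17, and 349 and 471 for the subset differences of the deletion and transgene lines against 142 and 264. Without the low-count filter, 71 were called in transgene cDC2 and 30 between cDC2 controls. With only the compared libraries, 550 were called in transgene cDC1 against 922, 85 between cDC2 controls, 6 between cDC1 controls and 1 in deletion-line cDC1. With pooled controls, 65 were called in transgene cDC2, 1872 in transgene cDC1 and 7 in deletion-line cDC1, and with the other line's controls 77, 1548 and 75. The replicate block on number gave 32 between cDC2 controls, and that pairing subsets gave 400 for the transgene-line difference. A 2-fold minimum left 3021 of 7035 calls between the control subsets, 244 of 686 in deletion-line cDC2, 407 of 922 in transgene cDC1 and 88 of 142 for the deletion-line difference. Leaving out 1 library gave 142 to 673 calls in deletion-line cDC2, 18 to 45 in transgene cDC2, 476 to 983 in transgene cDC1 and 9 to 12 between cDC2 controls. With 2 controls per group and Ccl17 under 2 CPM, precision is limited by the controls and, for Ccl17, by depth.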
